A study of Mus musculus with 2 samples.

Results

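Long noncoding RNA (lncRNA) promoter peaks are sites of accessible chromatin that lie close to the start of a lncRNA gene and away from the start of every protein-coding gene. They were taken from DNase-seq of whole mouse embryos of strain B6NCrl at 10.5 days, with males and females pooled. DNase-seq maps where the enzyme DNase I cuts chromatin, and each peak marks a 150 bp stretch that was cut readily. A replicate 1 peak was a member when it overlapped a replicate 2 peak by 1 bp or more, lay within 1000 bp of an annotated transcription start site (TSS) of a lncRNA gene and lay over 1000 bp from every protein-coding TSS, on chromosomes 1 to 19. The lncRNA genes were the 4 types that GENCODE M21 calls lincRNA (an intergenic lncRNA), antisense, bidirectional_promoter_lncRNA and processed_transcript. The rule found 3590 peaks among 203095 peaks of replicate 1, or among the 151215 that overlapped a replicate 2 peak (shared peaks). The study has 1 group of 2 biological replicates, with no treatment, mutant or other stage, so every comparison here is between classes of sites in the same embryos, described without a test. A whole embryo holds many cell types, so a weak peak in many cells and a strong peak in few cannot be told apart.

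LncRNAs are transcribed and often spliced and capped like messenger RNAs but are not known to be translated into a conserved protein. Some act at their site of transcription on neighbouring genes, some act elsewhere in the nucleus or the cytoplasm, and some serve mainly as the precursor of a small nucleolar RNA or a microRNA. Many start in the same control regions as nearby developmental genes, and an open promoter does not show that a stable RNA was made.

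The members carried a deposited strength score, the authors' own value for each peak, of 2 to 148 in replicate 1 and 3 to 149 in replicate 2 over all peaks. The definition of the score is not given in the sources used here, and it is used below to rank and describe peaks, with both replicates' values given. The 12 sequences that follow show the range of promoters met below. Each is 1 peak of 150 bp, read from the RefSeq GRCm38.p6 genome on the strand of its lncRNA gene, 5′ to 3′. Capitals mark matches on either strand to 4 promoter motifs, the GC box (GGGCGG), the CCAAT box (CCAAT), the TATA box (TATAAA) and the cAMP response element (CRE, TGACGTCA). The first 3 are strong promoters of an unnamed lncRNA gene, of the small nucleolar RNA host Snhg8 and of 1810026B05Rik, which RefSeq names Chaserr, the lncRNA beside the chromatin remodeller gene Chd2.
Gm10433, chr12:100187536-100187685, plus strand: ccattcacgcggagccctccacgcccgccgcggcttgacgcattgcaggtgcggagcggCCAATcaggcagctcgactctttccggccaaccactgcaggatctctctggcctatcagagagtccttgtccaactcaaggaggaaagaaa
Snhg8, chr3:123508436-123508585, minus strand: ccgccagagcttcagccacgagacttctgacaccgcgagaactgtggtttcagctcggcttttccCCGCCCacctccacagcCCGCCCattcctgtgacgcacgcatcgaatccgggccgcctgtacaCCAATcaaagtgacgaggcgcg
1810026B05Rik, chr7:73558636-73558785, minus strand: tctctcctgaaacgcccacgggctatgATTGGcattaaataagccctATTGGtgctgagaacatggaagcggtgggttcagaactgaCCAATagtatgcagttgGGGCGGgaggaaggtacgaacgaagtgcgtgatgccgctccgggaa

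The Gm10433 peak had 1 CCAAT box and 11 CpG dinucleotides, the Snhg8 peak 2 GC boxes, 1 CCAAT box and 15 CpGs, and the 1810026B05Rik peak 1 GC box, 3 CCAAT boxes and 9 CpGs. The next 4 are the promoters of imprinted lncRNAs, which are made from 1 parental copy.
Meg3, chr12:109540836-109540985, plus strand: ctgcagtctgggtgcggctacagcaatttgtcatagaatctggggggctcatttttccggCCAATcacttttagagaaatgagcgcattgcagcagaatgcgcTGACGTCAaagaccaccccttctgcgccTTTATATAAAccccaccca
H19, chr7:142578176-142578325, minus strand: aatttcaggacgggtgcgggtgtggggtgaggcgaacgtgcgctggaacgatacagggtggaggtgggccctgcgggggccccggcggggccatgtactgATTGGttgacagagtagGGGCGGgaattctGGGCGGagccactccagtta
Kcnq1ot1, chr7:143296556-143296705, minus strand: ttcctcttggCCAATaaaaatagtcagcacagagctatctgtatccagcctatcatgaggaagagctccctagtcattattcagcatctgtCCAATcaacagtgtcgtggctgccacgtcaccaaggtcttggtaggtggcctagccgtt
Airn, chr17:12741236-12741385, plus strand: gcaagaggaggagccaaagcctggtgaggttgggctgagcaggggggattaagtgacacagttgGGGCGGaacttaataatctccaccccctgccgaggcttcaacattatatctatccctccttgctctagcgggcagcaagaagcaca

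Among these, the Meg3 peak held a CRE, a CCAAT box and 2 overlapping TATA box matches near its 3′ end, the side of the annotated TSS, and the H19 peak held 2 GC boxes and 1 CCAAT box. The Kcnq1ot1 peak held 2 CCAAT boxes and the Airn peak 1 GC box, each with 3 CpGs. The last 5 contrast widely used nuclear RNAs with lncRNAs beside developmental genes and with a strong promoter that has no CpG at all.
Malat1, chr19:5802596-5802745, minus strand: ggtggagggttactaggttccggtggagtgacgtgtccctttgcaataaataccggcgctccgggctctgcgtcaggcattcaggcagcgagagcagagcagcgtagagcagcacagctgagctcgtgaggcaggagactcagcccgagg
Crnde, chr8:92356096-92356245, minus strand: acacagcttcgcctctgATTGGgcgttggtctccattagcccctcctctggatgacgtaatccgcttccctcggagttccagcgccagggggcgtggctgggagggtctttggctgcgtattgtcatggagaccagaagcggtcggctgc
Sox2ot, chr3:34664316-34664465, plus strand: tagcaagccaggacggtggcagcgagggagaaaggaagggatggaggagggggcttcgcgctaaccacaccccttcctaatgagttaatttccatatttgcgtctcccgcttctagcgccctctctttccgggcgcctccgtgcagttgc
3110039I08Rik, chr9:41326916-41327065, plus strand: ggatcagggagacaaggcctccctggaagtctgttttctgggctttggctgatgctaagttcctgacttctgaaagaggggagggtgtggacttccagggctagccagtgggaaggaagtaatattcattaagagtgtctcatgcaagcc
Hottip, chr6:52263096-52263245, plus strand: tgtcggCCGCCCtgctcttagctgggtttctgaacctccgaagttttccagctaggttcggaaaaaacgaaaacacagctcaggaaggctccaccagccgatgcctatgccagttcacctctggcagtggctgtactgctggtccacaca

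The 3110039I08Rik peak, at the start of the gene RefSeq names Mir100hg, had 0 CpGs and none of the 4 motifs, yet its strength was 117 in replicate 1 and 114 in replicate 2. The Malat1 and Sox2ot peaks had 10 CpGs each and none of the 4 motifs. The Crnde peak had 10 CpGs and 1 CCAAT box. The Hottip peak, with 6 CpGs and 1 GC box, is the member whose strength differed most between the replicates among those of mean strength 40 or more, at 20 in replicate 1 and 79 in replicate 2.

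LncRNA promoter peaks were stronger than distal peaks and weaker than protein-coding promoter peaks in both replicates. The median strength of members was 53 in replicate 1 and 68 in replicate 2, with quartiles of 38 and 76 in replicate 1 and of 51 and 90 in replicate 2. The 34567 shared peaks within 1000 bp of a protein-coding TSS had medians of 67 and 84, and the 110899 shared peaks over 1000 bp from every TSS of any gene (distal peaks) had medians of 45 and 55, in replicates 1 and 2. A mean strength of 100 or more was reached by 430 members, or 11.98%, against 31.6% of protein-coding promoter peaks, 3.63% of distal peaks and 10.3% of all shared peaks. The protein-coding peaks had a second hump above strength 100 that the members lacked, as the plot of strength by class shows.

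**Figure D1:**
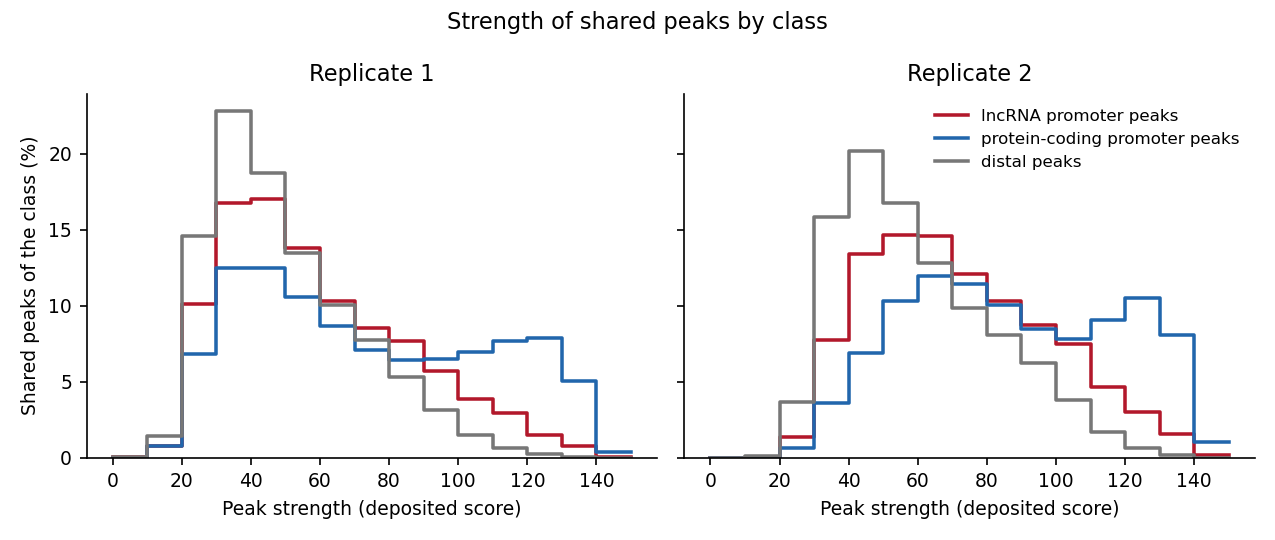
Share of shared peaks (y axis, % of the class) by deposited strength score (x axis, bins of 10) in each replicate, for lncRNA promoter, protein-coding promoter and distal peaks. The lncRNA line lies between the other lines at most strengths above 100, where 11.98% of members and 31.6% of protein-coding promoter peaks have their mean.

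Of the 4602 replicate 1 peaks that met the distance rule, 78.0% overlapped a replicate 2 peak, against 81.2% of protein-coding promoter peaks, 72.4% of distal peaks and 74.5% of all replicate 1 peaks. Of the 5373 replicate 2 peaks that met the rule, 67.0% overlapped a replicate 1 peak. The 1012 that met the distance rule in replicate 1 but were unshared were weak, with a median of 31. Member strengths in the replicates ranked alike, with a Spearman rho of 0.895 over 3590 peaks, given as a description, and 0.950 over protein-coding promoter peaks and 0.878 over distal peaks. Replicate 2 had the higher score at 3190 members, replicate 1 at 330, and 70 were equal. On the log2 scale the score in replicate 2 over that in replicate 1 had a median of 0.28 over members, 0.25 over protein-coding promoter peaks, 0.27 over distal peaks and 0.26 over all shared peaks.

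The members belonged mostly to intergenic lncRNAs, the type that also makes up most annotated lncRNA genes. By the nearest lncRNA TSS, 2195 members, or 61.1%, were at lincRNA genes, 895 at antisense genes, 478 at processed_transcript genes and 22 at bidirectional_promoter_lncRNA genes. Of all 9065 lncRNA genes, 5209 were lincRNA genes. So were 4867 of the 7366 with a TSS over 1000 bp from every protein-coding TSS. Median strengths were 52 and 66 at lincRNA genes, 52 and 67 at antisense genes, and 57 and 77 at processed_transcript genes, in replicates 1 and 2. The last of these types holds many long studied genes such as Gas5 and Sox2ot, and 15.7% of its members reached a mean of 100, against 12.1% at lincRNA and 9.83% at antisense genes. Counted by gene, 2330 of 9065 lncRNA genes, or 25.7%, had a member. Another 1440 had a shared peak within 1000 bp of a TSS but only ones that lay as close to a protein-coding TSS, which the rule leaves out. Among the 7366 lncRNA genes with a TSS over 1000 bp from every protein-coding TSS, 2213 had a member, or 30.0%. By type the share was 29.2% of lincRNA, 28.3% of antisense and 44.5% of processed_transcript genes. With no rule on distance to protein-coding TSSs, 3770 of the 9065 lncRNA genes had a shared peak within 1000 bp of a TSS. Of 20807 protein-coding genes, 70.8% had a shared peak at a TSS. Those genes have 90310 TSSs, against 13485 for the lncRNA genes, and the part of TSS number in this difference was not tested. Most open lncRNA genes had a single member: 1466 had 1, 541 had 2, 323 had 3 or more and 42 had 5 or more.

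Members were most frequent just upstream of the TSS, but less concentrated there than protein-coding promoter peaks, and most lay over 100 bp from a lncRNA TSS. The peak covered a lncRNA TSS at 732 members, lay up to 100 bp from one at 553, farther but up to 500 bp at 1184 and farther still, up to 1000 bp, at 1121. Strength was highest over the TSS, with medians of 60.5 and 75, and lowest in the farthest class, with 49 and 64, in replicates 1 and 2. The peak centre lay within 100 bp of the nearest lncRNA TSS at 25.3% of members, against 38.9% of protein-coding promoter peaks about their own TSSs, and it lay upstream at 58.1% of members and 55.9% of protein-coding promoter peaks. The single fullest bin was the 100 bp upstream of the TSS, with 18.7% of members and 29.3% of protein-coding promoter peaks.

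**Figure D2:**
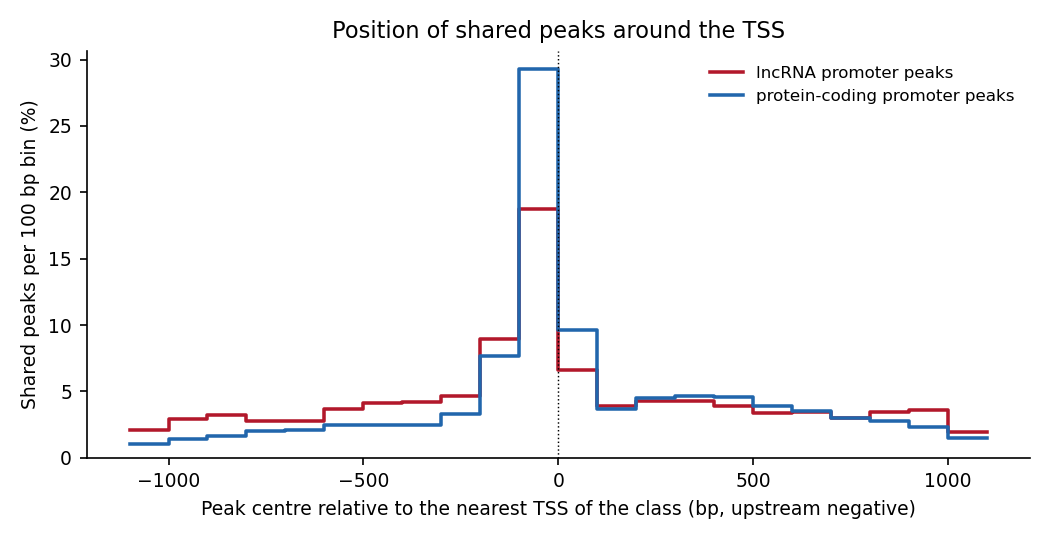
Position of the peak centre relative to the nearest TSS of its class (x axis, bp, upstream negative) as the share of shared peaks in each 100 bp bin (y axis, %), for lncRNA and protein-coding promoter peaks. Both lines peak in the bin just upstream of the TSS, at 18.7% for lncRNA and 29.3% for protein-coding promoter peaks, and the lncRNA line is higher from 300 to 1000 bp upstream.

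Peaks at the edges of the rule ranged from weak to near the members' medians. The members farthest from their lncRNA TSS, at 1000 bp, were at Gm35818 with strengths of 50 and 45 and at Gm9979 with 62 and 80, in replicates 1 and 2. The nearest shared peaks left out, at 1001 bp, were at Gm16068 with 19 and 32 and at AV356131 with 58 and 66. On the protein-coding side, members at 2810457G06Rik, 1001 bp from a protein-coding TSS, and at C230062I16Rik, 1003 bp away, had strengths of 62 and 83 and of 13 and 24. Peaks left out at 998 bp near Tmem134 and at 997 bp near Junos, the antisense partner of Jun, had 26 and 36 and 46 and 71.

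Most members lay outside protein-coding genes. By location, 192 were in a protein-coding exon, 647 in a protein-coding intron, 1078 in a lncRNA exon, 847 in a lncRNA intron and 826 in none of these. Of the members inside a protein-coding gene body, 781 belonged to a lncRNA on the opposite strand and 58 to one on the same strand. The median distance to the nearest protein-coding TSS was 28182 bp, and 798 members lay over 100000 bp from one, with median strengths of 49 and 61, against 56 and 76 for the 737 members within 5000 bp of one. A second annotation gives some of these genes another type. RefSeq has the gene of 55 members, of 27 genes, as protein-coding, among them Zswim6, Tctn2 and Trerf1, and 86 members lay within 1000 bp of a RefSeq mRNA start. The 94 members of either kind had median strengths of 69 and 87, and the other 3496 had 53 and 67.

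Most members were poorer in CpG than protein-coding promoter peaks, and those that were CpG-rich were stronger. CpG islands, stretches that keep many CpG dinucleotides, cover most housekeeping promoters of vertebrates. The median ratio of observed to expected CpGs in the 150 bp was 0.362 for members, 0.647 for protein-coding promoter peaks and 0.227 for distal peaks. Over all shared peaks it was 0.284. The median GC content was 52.7%, 60%, 50% and 51.3% in the same order. A ratio of at least 0.6 and a GC content of at least 55% were taken as CpG-rich. By this 546 members qualified, or 15.2%, near the 13.7% of all shared peaks. The share was 47.8% of protein-coding promoter peaks and 3.02% of distal peaks. The CpG-rich members had median strengths of 76 and 92, and 32.8% had a mean of 100 or more. The other 3044 had 50 and 64, and 8.25%.

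Members were weaker than protein-coding promoter peaks both among CpG-rich peaks and among the rest. CpG-rich members had medians of 76 and 92, below the 94 and 105 of CpG-rich protein-coding promoter peaks. Other members had 50 and 64, close to the 51 and 70 of other protein-coding promoter peaks. Over all peaks the gap was larger among the CpG-rich. Among peaks that covered a TSS and were CpG-rich, the 169 members had medians of 85 and 98 and the 7972 protein-coding peaks 107 and 116. Among those that covered a TSS and were not CpG-rich, the 563 members had 55 and 68 and the 3486 protein-coding peaks 75 and 89. Peak number per gene and use of several TSSs differ between the classes, and their part in these values was not tested.

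Motif content followed the same order, with members between protein-coding promoter and distal peaks for most of the 17 motifs searched on both strands. The GC box, bound by SP and KLF factors, was in 14.9% of members, against 35.1% of protein-coding promoter peaks, 6.22% of distal peaks and 13.1% of all shared peaks. Among CpG-rich peaks alone it was in 45.1% of members and 55.7% of protein-coding promoter peaks. The ETS site (CCGGAAG) was in 2.92% of members, 6.81% of protein-coding promoter peaks, 1.19% of distal and 2.53% of all shared peaks. The AP-2 site (GCCNNNGGC) was in 8.25%, 13.2%, 5.42% and 7.27% of the same classes in that order, the CACGTG E-box in 3.96%, 5.33%, 2.86% and 3.45%, and the CRE in 1.03%, 1.48%, 0.28% and 0.58%. The long NRF1 site, searched by its consensus, was in 7 members, or 0.19%, against 0.99% of protein-coding promoter peaks and 0.27% of all shared peaks.

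Another group of motifs was more frequent in members than in protein-coding promoter peaks. The CATCTG E-box, read by proneural and mesodermal factors, was in 14.99% of members, against 8.60% of protein-coding promoter peaks, 19.8% of distal and 17.1% of all shared peaks. The CAGCTG E-box was in 15.5%, 11.0%, 17.2% and 15.7% of these classes in the same order, the TEAD site (GGAATG) in 10%, 6.99%, 11.3% and 10.3%, the SOX site (ATTGTT) in 5.96%, 3.31%, 7.69% and 6.63%, the GATA site (AGATAA) in 5.40%, 2.85%, 6.41% and 5.56% and the homeobox core (TAATTA) in 3.29%, 1.40%, 4.28% and 3.58%. The TATA box was in 4.68% of members, 2.80% of protein-coding promoter peaks, 5.72% of distal and 5.02% of all shared peaks. The CCAAT box was about as frequent in every class, at 19.4%, 20.9%, 17.9% and 18.6% in the same order. The site of YY1 (AAGATGGC) was in 0.75%, 1.39%, 0.92% and 1.02%, and the partial site of the neuronal repressor REST (TTCAGCACC) in 0.25%, 0.48%, 0.49% and 0.48%, both lower in members than in any other class. A match is a run of letters and not a shown binding site, and matches to different motifs may overlap.

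**Figure D3:**
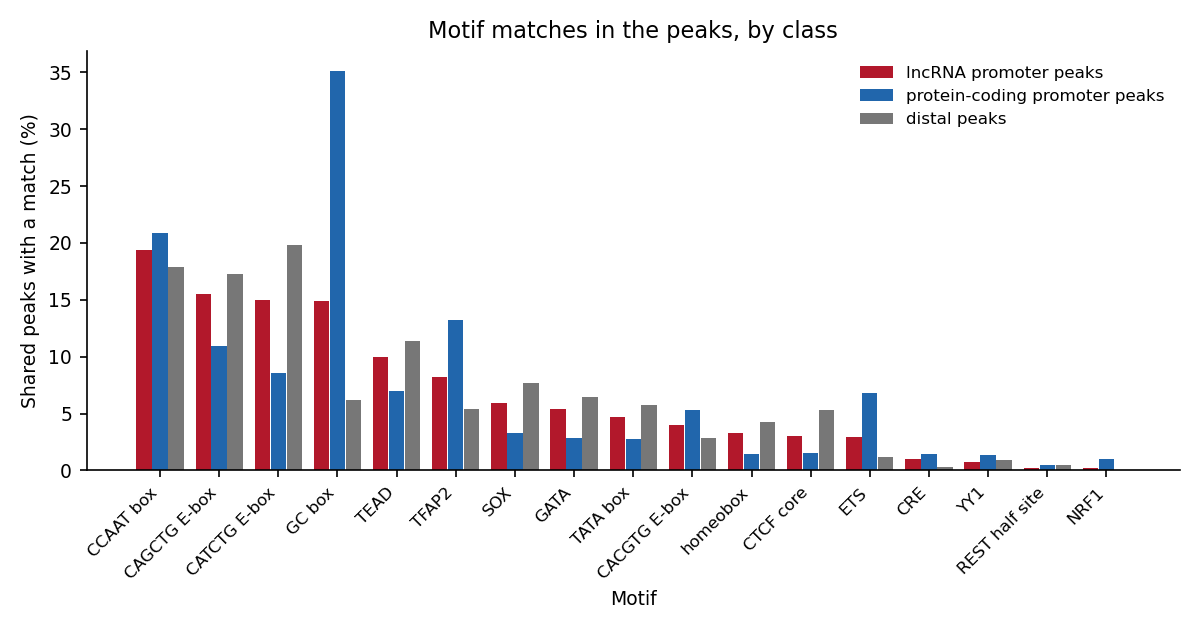
Share of shared peaks (y axis, %) with at least 1 match to each of the 17 motifs (x axis) among lncRNA promoter, protein-coding promoter and distal peaks. The GC box differs most, with 14.9% of lncRNA promoter peaks and 35.1% of protein-coding promoter peaks.

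Members with some of these motifs were stronger than those without, and members with others were weaker. The median of the mean strength was 78.5 with a GC box and 57.5 without, 78 with an ETS site, 83 with a CRE, 91.5 with the rare NRF1 site and 81.5 with the rare REST site, each against 60 without. It was lower with a GATA site, at 50.5 against 60.75 without. It was also lower with a TATA box (53.5), homeobox core (53.75), SOX site (54.5), YY1 site (56), CATCTG E-box (57.5) and TEAD site (58), each against 60.5 without. A GC box was in 32.1% of members with a mean strength of 100 or more and in 12.6% of weaker members. The core site of CTCF, the insulator protein that anchors chromatin loops, was in 109 members, or 3.04%, against 1.56% of protein-coding promoter peaks, 5.34% of distal and 4.44% of all shared peaks. Members with it had median strengths of 81 and 98, and those without it had 52 and 67, in replicates 1 and 2. It was in 27 of the 430 members of mean strength 100 or more and in 82 of the 3160 weaker ones. Distal peaks with a CTCF core were likewise stronger, at 67 and 82, against 44 and 54 for those without. Protein-coding promoter peaks with it had medians of 76 and 90, against 67 and 84 without. Among these a mean of 100 or more was less frequent with the core, at 22.0%, than without, at 31.7%. The 2 strongest such members, chosen after their values were seen, were at Snhg7os, with 118 and 124, and at Gm30684, with 113 and 120.

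The 12 strongest promoters, taking 1 peak per gene, were chosen by the mean of both scores and sit near the bound of the score. Gm10433, a processed transcript, led with 139 and 144 at chr12:100187536-100187685. Zmiz1os1, antisense to the transcriptional coregulator gene Zmiz1, had 138 and 143, 1810019N24Rik had 140 and 141, and 1700113A16Rik, near the muscle factor gene Mef2d, had 138 and 142. The next 4 were 4833417C18Rik with 141 and 138, 6720427I07Rik and Snhg8 with 138 in each replicate, and 5430416N02Rik with 138 and 137. Gm15287 had 134 and 140, 1810026B05Rik 139 and 135, 2900052L18Rik 136 and 136 and 1700028E10Rik 137 and 135. The peak covered an annotated TSS at 4833417C18Rik, Gm15287, 2900052L18Rik and 1700028E10Rik, and lay 21 to 361 bp from one at the others. The Zmiz1os1 peak lay 1420 bp from the TSS of Zmiz1, and the 2900052L18Rik peak 1242 bp from that of Bahcc1. In all 12 the CpG ratio was between 0.395 at Gm15287 and 1.08 at Snhg8, all above the 0.362 median of members.

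The 5 weakest members had scores from 8 to 21. Gm16028 had 9 and 14, Gm40645 had 12 and 15, and A530040E14Rik had 17 and 16, in replicates 1 and 2. The other two were overlapping peaks at Gm4425, with 8 and 21 and with 9 and 21, which share their target and are not separate promoters.

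Small nucleolar RNA host genes had the strongest promoters of the 5 gene lists described. These genes carry in their introns the small RNAs that guide modification of ribosomal RNA. Of 17 matched host genes, 11 had a member, or 64.7%, against 25.7% of all lncRNA genes. The strongest member of each had median strengths of 120 in replicate 1 and 129 in replicate 2, against 60.5 and 73 over all 2330 lncRNA genes with a member. Taking the strongest of several favours genes with more members, and the open hosts had a median of 2, against 1 over all open lncRNA genes. Snhg8, Snhg15 with 129 and 138, Dancr with 131 and 129, and Snhg16, annotated as 1810032O08Rik, with 126 and 130, stood highest. Snhg20 had 123 and 132, Snhg5 120 and 131, Snhg12 118 and 129, Snhg6 120 and 121, Snhg17 108 and 115, and Epb41l4aos 96 and 126. In 10 of the 11 the mean was 100 or more and the CpG ratio at least 0.6, and in 8 the peak covered an annotated TSS. The exception in both was Gas5, a growth arrest RNA, whose strongest member at chr1:161036336-161036485 had 46 and 74. That peak lay in an exon, 210 bp from a TSS annotated inside the gene, which starts at 161034422. It was 1487 bp from the TSS of Zbtb37 and overlapped its replicate 2 partner by 10 bp. These scores therefore do not describe the promoter at the start of Gas5. Snhg1, Snhg3, Snhg9 and Snhg10 had shared peaks close to a protein-coding TSS, Snhg18 had a peak in each replicate but no shared one, and Snhg14, the imprinted host in the Prader-Willi region, had no peak.

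MicroRNA host genes had a member in 17 of 19 matched cases, or 89.5%, against 25.7% of all lncRNA genes. Each annotated TSS has its own window, so a gene with more TSSs has more places to gain a member. Matched hosts had from 1 TSS at Mir17hg to 40 at Mir100hg, against 13485 TSSs over all 9065 lncRNA genes. The part of TSS number in the shares of the gene lists was not tested. Some genes are on more than 1 list, so these shares are not separate observations. The strongest member had medians of 89 and 102, and the open hosts had a median of 3 members each, against 1 over all open lncRNA genes. It covered an annotated TSS at 6 of the 17 hosts. Dnm3os, the host of Mir199a-2 and Mir214 within the dynamin gene Dnm3, had 124 and 123 with a CpG ratio of 0.37. Mir22hg had 122 and 131, the smooth muscle and cardiac lncRNA Carmn 120 and 117, Mir100hg 117 and 114, Mir99ahg 113 and 118 and Mir670hg 111 and 129. The Mir22hg peak lay 854 bp from its lncRNA TSS and 1030 bp from that of the protein-coding gene Tlcd2. The Carmn peak lay 939 bp from its TSS. C130071C03Rik, the host of the brain microRNA Mir9-2 downstream of Mef2c, had 110 and 125. The hosts of the neuronal Mir124, Mir124-2hg and Mir124a-1hg, had 96 and 97 and 65 and 80, and Mir9-3hg had 66 and 102. Mir17hg, the host of the growth-promoting Mir17 cluster, had 72 and 98. The lowest hosts were Rian with 42 and 41, Mir142hg with 47 and 42, Mirg with 50 and 58 and Mir155hg with 57 and 63. Of these, Mir142hg and Mir155hg are blood cell hosts, and Rian and Mirg are imprinted genes described below. Lncppara, which RefSeq also names Mirlet7bhg, and the muscle host Mir133a-1hg had no peak.

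Of 11 matched imprinted lncRNA genes, 9 had a member, or 81.8%, against 25.7% of all lncRNA genes. Meg3, H19, Rian and Mirg also count among the microRNA hosts, and Snhg14 among the small nucleolar RNA hosts. The strongest member had medians of 87 and 95, with a median of 1 member per open gene, as over all open lncRNA genes. It covered an annotated TSS at 2 of the 9 genes. Kcnq1ot1, the antisense RNA in an intron of the potassium channel gene Kcnq1 that silences its domain, had 126 and 131 at chr7:143296556-143296705. Nespas, antisense at the Gnas cluster, had 114 and 124, and Airn, antisense to the growth factor receptor gene Igf2r, had 104 and 113. Kcnq1ot1 had 2 further members in the 1000 bp downstream of its start, at 40 and 61 and at 31 and 65. Airn had 51 and 63 upstream and 40 and 62 downstream of its main peak. At the Dlk1 to Dio3 locus on chromosome 12, Meg3 had 4 members, with 89 and 106 at its start and 61 to 84 in replicate 1 and 71 to 99 in replicate 2 at the others. Rian had 42 and 41 and Mirg 50 and 58, and these are known to be transcribed as parts of the same long unit as Meg3. H19, the host of Mir675 beside Igf2, had 83 and 72 and was 1 of the listed genes with the higher score in replicate 1. Gm32061 had 87 and 95 and A330076H08Rik 37 and 37. Snhg14 and B830012L14Rik had no peak. DNase-seq peaks do not separate the parental copies.

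Of 20 matched nuclear and other well known lncRNA genes, 15 had a member, or 75%, against 25.7% of all lncRNA genes. Carmn, described above, is among them and also counts as a microRNA host. The strongest member had medians of 86 and 94, with a median of 3 members per open gene, against 1. It covered an annotated TSS at 7 of the 15 genes. Chaserr led with 139 and 135, followed by Crnde, which lies 1380 bp from the TSS of the homeobox gene Irx5, with 130 and 136, and by Oip5os1, annotated as 1700020I14Rik and also known as Cyrano, with 121 and 128. Malat1, an abundant RNA of nuclear speckles, had 112 and 129 over its TSS, and Neat1, the scaffold of paraspeckles, had 92 and 114. Lncenc1, known from embryonic stem cells, had 84 and 102, the neural Miat 93 and 92 and Rmst 86 and 94, 2900097C17Rik 81 and 92, Morrbid, annotated as Gm14005, 71 and 85 and Lncpint 69 and 87. Bvht, named for its part in cardiac commitment, had 62 and 70, Pvt1, beside Myc, 52 and 75 and Trp53cor1, a p53 target, 52 and 71. Tug1 and Cerox1 had shared peaks close to a protein-coding TSS, and Platr3, Platr4 and Gm26917 had no peak.

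**Figure D4:**
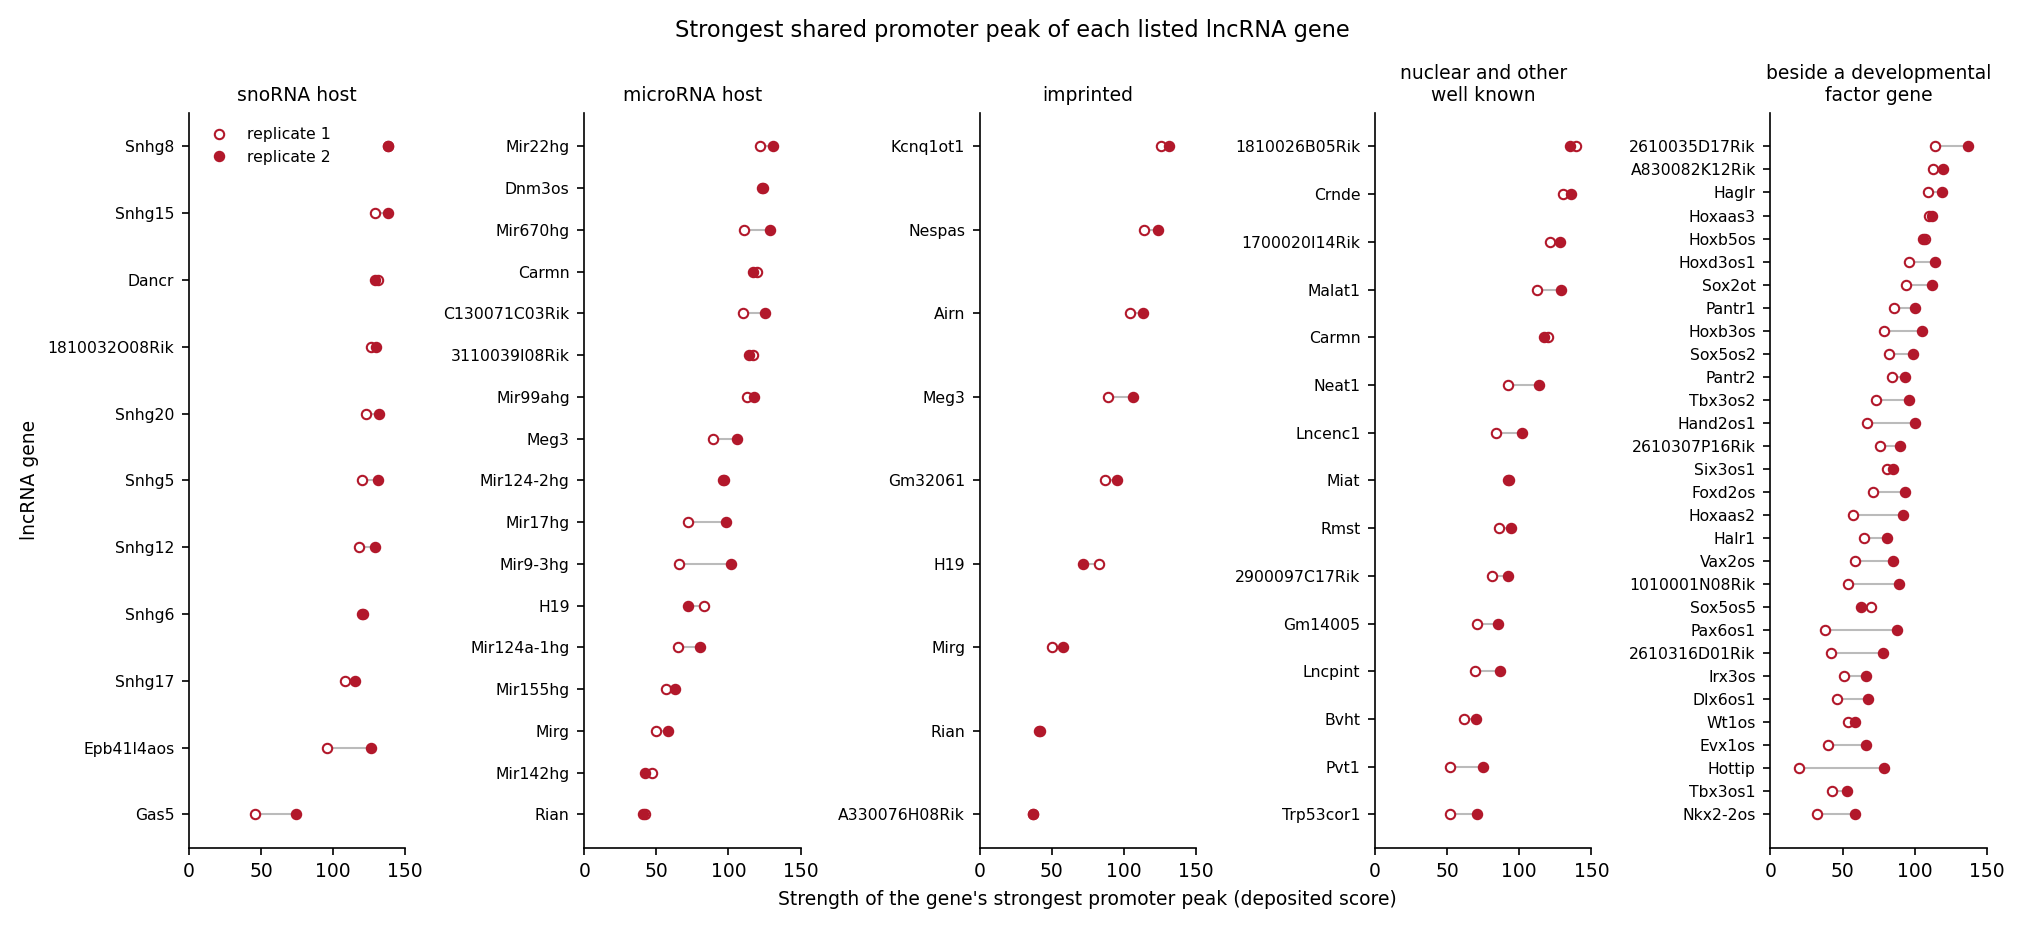
Strength (x axis, deposited score) of the strongest lncRNA promoter peak of each listed gene (y axis) in replicate 1 (open) and replicate 2 (filled), joined by a line, in the 5 gene lists. A peak may lie up to 1000 bp from the TSS. The small nucleolar RNA hosts other than Gas5 lie at 96 or above in both replicates, and the genes beside developmental factors spread from 20 to 114 in replicate 1 and from 53 to 137 in replicate 2.

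LncRNAs beside developmental transcription factor genes had a member in 30 of 48 matched cases, or 62.5%, against 25.7% of all lncRNA genes. The strongest member had medians of 70.5 in replicate 1 and 91 in replicate 2, with a median of 2 members per open gene, against 1. It covered an annotated TSS at 5 of the 30 genes. It lay 919 to 978 bp from the nearest lncRNA TSS at Foxd2os, Pantr2, Dlx6os1, 2610316D01Rik and Vax2os. 2610035D17Rik, in the region between the cartilage factor gene Sox9 and Slc39a11, had 114 and 137, A830082K12Rik, beside the nuclear receptor gene Nr2f1, had 113 and 120, and Haglr, in the Hoxd cluster, had 109 and 119. Other Hox cluster lncRNAs included Hoxaas3 with 110 and 112, Hoxb5os with 107 and 106, Hoxd3os1 with 96 and 114, Hoxb3os with 79 and 105, Halr1 with 65 and 81, Hoxaas2 with 57 and 92, Evx1os with 40 and 66 and Hottip with 20 and 79. Of those beside brain factor genes, Pantr1 had 86 and 100 and Pantr2 84 and 93, both near Pou3f3, Six3os1 had 81 and 85, Vax2os 59 and 85, Dlx6os1 46 and 68, Pax6os1 38 and 88 and Nkx2-2os 32 and 59. Beside factors of other tissues, Tbx3os2 had 73 and 96, Foxd2os 71 and 93, 1010001N08Rik, which RefSeq also names Gata6os, 54 and 89, Wt1os 54 and 59, Irx3os 51 and 66 and Tbx3os1 43 and 53. Sox5os2 had 82 and 99, Sox5os5 70 and 63 and 2610307P16Rik, near Sox4, 76 and 90. 2610316D01Rik, on the list but with the protocadherin gene Pcdh10 and no listed factor gene as its nearest neighbour, had 42 and 78. Hotair, the Hoxc cluster lncRNA, had no peak, nor had Foxo6os, Sox5os1, Sox5os3, Sox5os4, Gm38509 or Zfhx2os. Dlx1as and Otx2os1 had a peak in replicate 2 alone and Hoxa11os in replicate 1 alone, while Fendrr, Dlx4os, Lhx1os, Emx2os, Foxl2os, Zeb2os, Ptf1aos and Hotairm1 had shared peaks close to a protein-coding TSS. The strongest member had its higher score in replicate 2 at 28 of the 30 open genes, where 88.9% of all members did.

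A few lncRNA genes had a row of promoter peaks. Sox2ot, within which the pluripotency and neural factor gene Sox2 lies, had 20 members over its 18 annotated TSSs. Their strengths ran from 29 to 94 with a median of 45.5 in replicate 1, and from 32 to 112 with a median of 64.5 in replicate 2. The strongest was the peak at chr3:34664316-34664465 shown above, downstream of Sox2, with 94 and 112, and another at chr3:34559276-34559425, 90980 bp from the Sox2 TSS, had 94 and 98. Mir100hg had 13 members, Hand2os1, beside the heart and limb factor gene Hand2, had 11, and Malat1, Mir670hg and Mir99ahg had 8 each. At Hand2os1 the 11 members had 16 to 67 in replicate 1 and 43 to 100 in replicate 2. At Malat1 the 3 peaks at and upstream of the main start had 76 to 113 in replicate 1 and 102 to 129 in replicate 2, and the 5 near TSSs annotated towards the end of the gene had 24 to 31 and 41 to 68. These members share a gene and are not independent promoters.

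Members had a developmental factor gene as nearest protein-coding gene in a larger share than shared peaks away from coding promoters as a whole. The nearest protein-coding gene was 1 of 235 listed factor genes at 288 members, or 8.02%, against 4.62% of all 116648 shared peaks over 1000 bp from a protein-coding TSS. These 288 members were nearest to 91 factor genes, at a median distance of 15341 bp. No limit was set on distance, and the farthest, with Zeb2 as its nearest gene, lay 1326281 bp away. Below, beside a factor gene means only that it was the nearest protein-coding gene. Sox2 had 20, and Nr2f1, Hand2 and the Hox cofactor gene Meis1 had 13 each. Irx3 had 11, Hoxb9 and Pou3f3 had 8 each, Mef2c, Hoxd3 and the ventral neural tube gene Nkx2-2 had 7 each, and Tfap2a and Sox4 had 6 each. Median strengths over these members ranged from 26 and 59 at Nkx2-2 to 76 and 93 at Mef2c. LncRNA TSSs are themselves placed unevenly about factor genes, and the part of that in the count was not tested.

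The replicates differed more at lncRNA promoters beside factor genes than at the others. The 288 members had medians of 51 in replicate 1 and 71 in replicate 2, and the 3302 others had 53 and 67. The log2 of the score in replicate 2 over that in replicate 1 had a median of 0.38 beside factor genes, against 0.28 for other members. A log2 ratio of 1 or more was found at 126 members, or 3.51%, against 2.41% of all shared peaks. It was found at 29 of the 288, or 10.1%, and at 2.94% of other members. The 5 highest ratios among members of mean strength 40 or more had replicate 1 scores of 20 to 26 and reached that mean through replicate 2. Among them were Hottip near Hoxa13 with 20 in replicate 1 and 79 in replicate 2, Gm11535 near Hoxb13 with 26 and 81, 2610035F20Rik near Zic2 with 25 and 77 and Gm14424 near Hoxd3 with 24 and 71. Below that mean, and named after their values were seen, Gm53 near Hoxb9 had 14 and 59 and Gm20528 near Ugt1a1, not a listed factor gene, had 12 and 48, ratios higher than that of Hottip. Some ratios rest on loose pairing. The Gm11535 pair and this Gm20528 pair each overlapped by 10 bp. The Gm20528 partner was also that of a neighbouring member with 21 and 48, which it overlapped by 110 bp. In all, 146 members had a partner that was also another member's. The 5 lowest ratios were at 5033421B08Rik with 52 and 35, Gm9946 with 53 and 36, Gm48570 and Gm12410 with 55 and 38 each and Gm12199 with 75 and 52, none of them beside a listed factor gene.

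**Figure D5:**
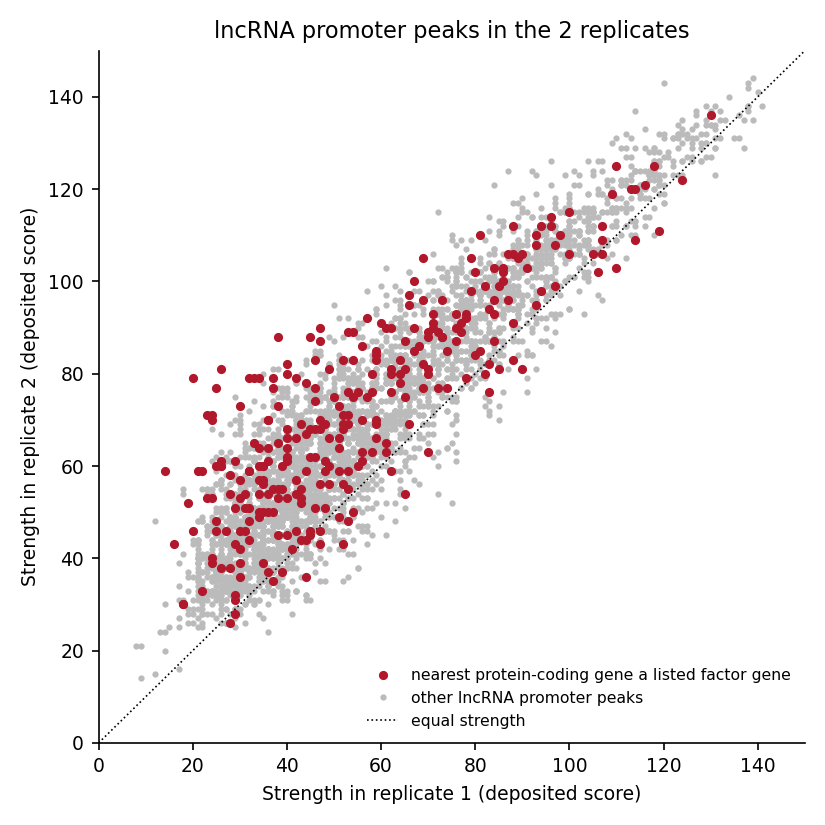
Strength of each of the 3590 lncRNA promoter peaks in replicate 2 (y axis) against replicate 1 (x axis), both as the deposited score, with the 288 members whose nearest protein-coding gene is a listed factor gene in red and the others in grey. Most points lie above the dotted line of equal strength, and the red points reach farthest above it below a replicate 1 strength of 40.

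The width of the surrounding hotspot differed along with the score in part of these members. Hotspots are the wider regions of raised cleavage that the authors deposited beside the peaks, and 3586 members lay in one in both replicates. Around members the median hotspot width was 348 bp in replicate 1 and 617 bp in replicate 2, against 640 and 1491 bp for protein-coding promoter peaks and 282 and 326 bp for distal peaks. A hotspot of 2000 bp or more held 119 of the 288 members beside factor genes in replicate 2, or 41.3%, and 8, or 2.78%, in replicate 1. For other members the shares were 13.1% in replicate 2 and 2.54% in replicate 1. Over all shared peaks they were 9.91% and 1.57%. The 461 members in such a hotspot in replicate 2 alone had a median log2 ratio of 0.43, the 89 in such hotspots in both replicates 0.29, and the 3037 in narrower hotspots in both 0.27. The 3 members in such a hotspot in replicate 1 alone had 0.83, also towards replicate 2. Hottip lay in a hotspot of 81 bp in replicate 1 and of 7949 bp in replicate 2. The pattern was not confined to lncRNA promoters. Other shared peaks over 1000 bp from coding TSSs had a log2 ratio of 1 or more at 4.995% beside factor genes and 1.76% beside other genes, and coding promoter peaks of factor genes had it at 8.77%. In replicate 2, a hotspot of 2000 bp or more held 15.7% of those other shared peaks beside factor genes and 3.16% beside other genes. It held 58.6% of coding promoter peaks of factor genes. Whether the embryos of the replicates, the libraries or the calling differed cannot be told apart from the deposited files.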

How the data were processed

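Peaks and hotspots were deposited for each of 2 biological replicates of the DNase-seq assay, on mm10, per the labels. The sources used here do not name the aligner or the peak caller. Every peak in the deposited files has a score, bounded near 150, of unstated definition. Strong peaks sit near the bound, so ratios among them are compressed. Hotspots in the deposited files have a −log10 q-value, from 1.30 to 100, and none was filtered on it. Library depth is unknown, and no interval that rests on depth was computed.

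Of 208148 and 229803 lines of peaks, 28 and 47 repeats were dropped, and 203095 and 223678 peaks on chromosomes 1 to 19 were used. Each member was paired with the replicate 2 peak it overlapped most. Distances run from the peak edge to the 5′ end of any GENCODE M21 transcript. The genome was RefSeq GRCm38.p6, which has the chromosomes of mm10. Intervals and motifs were computed in Python 3.11.15 with numpy 2.4.6 and pandas 2.3.3, and the interval and motif code was tested on simulated data. No test was made, since the series holds 1 group and peaks are not replicates.

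The members, the 5 gene lists, the factor genes and the motifs were chosen with earlier results of these data known. Named are the 12 strongest members, 1 per gene, the 5 weakest, the 6 genes with most members, the 5 highest and 5 lowest ratios at a mean strength of 40 or more, every listed gene, the 12 factor genes with most members and the 5 strongest unshared peaks of each replicate. One member that this rule takes is not reported here. Listed symbols absent from GENCODE or of another gene type were left out, and some were matched through RefSeq synonyms. The alternative that drops genes and TSSs coding in RefSeq was chosen after seeing the data.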

Additional observations from a re-analysis of the deposited data

How the results depend on the processing

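With peaks of 1 score of undefined meaning in 2 replicates of unknown depth, small differences between classes cannot be read, and overlapping or same-gene members are not independent. Of 125 alternative values, 81 moved by less than the spread between replicates or, for counts, stayed within 1.5 times. The other 44 moved by more and 0 changed sign. Only the median log2 ratio had a sign to change, since counts, shares, distances and strengths are never negative. Its alternatives ran from 0.21 with 1 peak per gene to 0.29 with a 2 kb window, against 0.28 in the main setting. The spread used for it, 0.25, rests on the same replicate difference that the ratio measures, so it is no separate yardstick. The spread of the CpG ratio between replicates was so small that every alternative exceeded it.

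The number of members was 5475 with a 2 kb window, 2227 for lincRNA genes only, 2356 for the stronger 50% of peaks and 2276 with 1 peak per gene, and lincRNA genes alone gave 1449 genes with a member. For the stronger 50% of peaks, the shared share was 86.0%, the median strength 68 in replicate 1 and 82 in replicate 2, the CpG ratio 0.411, the share within 100 bp of a TSS 38.8%, the GC box share 18.6% and the median distance to a protein-coding TSS 24802 bp. With a 500 bp window the CpG ratio was 0.385, the share within 100 bp 52.0% and the GC box share 16.1%. With a 2 kb window these were 0.337, 23.5% and 13.0%, with 27.1% in a protein-coding gene body and a median distance of 24158 bp. Over 5 kb from protein-coding TSSs, the CpG ratio was 0.349, the share within 100 bp 37.6%, the share in a gene body 15.5% and the distance 44873 bp. For the gene 5′ end only, the CpG ratio was 0.369, the share within 100 bp 33.9% and the share in a gene body 25.2%. For lincRNA genes only, the CpG ratio was 0.354, the share in a gene body 4.80% and the distance 49250 bp. With 1 peak per gene, the CpG ratio was 0.348, the share within 100 bp 40.2% and the share in a gene body 26.3%. An overlap of 75 bp gave a CpG ratio of 0.363, and leaving out genes and TSSs coding in RefSeq gave 0.358.

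Using the peaks of a single replicate, without replicate 1 and without replicate 2, gave 4602 to 5373 members, 2728 to 2842 genes with a member, medians of 46 in replicate 1 and 58 in replicate 2, CpG ratios of 0.340 to 0.341, 31.4% to 33.2% within 100 bp of a TSS, 11.6% to 13.1% with a GC box, 23.8% to 25.01% in a gene body, distances of 25159 to 29273 bp and 7.84% to 10.5% beside a factor gene. The causes were not tested.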

Other observations

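The strongest peaks that met the distance rule but were unshared lay just beside a peak of the other replicate. In replicate 2 they were at Zswim6 with a strength of 132, Gm29340 with 126, 5930403N24Rik, near Marcks, with 125, Gm28872 with 120 and 4930430O22Rik, near the neural RNA-binding protein gene Msi1, with 117. In replicate 1 they were at Gm36584, near Mex3b, with 124, Gm29340 with 115, Gm40418 with 97, and Gm45069 and Gm47430 with 96 each. The gap to the nearest peak of the other replicate was 10 to 210 bp, and all 10 lay in a hotspot of the other replicate. At Gm29340 both replicates had a strong peak, 10 bp apart, so the rule on overlap left out a site that each replicate had. Of all unshared peaks that met the distance rule, 11.9% of the 1775 of replicate 2 and 37.8% of the 1012 of replicate 1 lay in a hotspot of the other replicate.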
